A study of Mus musculus with 8 samples.

Results

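Messenger RNA of 10 receptor genes of natural killer (NK) cells was examined in single-cell libraries from mouse melanoma: Klrk1 (NKG2D), Klrd1 (CD94), Klrc1 (NKG2A), Klrc2 (NKG2C), Klrb1c (NKR-P1C, the NK1.1 antigen), Klrb1b (NKR-P1B), Klre1, Klri2, Klrg1 and Ncr1 (NKp46). The rule that chose them used symbols alone, though the set was drawn up with earlier results of these data known, and they were 10 of the 27998 genes of the deposited table. All but the last are killer cell lectin-like receptors encoded on chromosome 6 (GRCm38), from Klrg1 at 122270596 to 122282833 to Klri2 at 129729041 to 129740484. Ncr1 is not a lectin but an immunoglobulin-type receptor on chromosome 7 at 4337715 to 4345184.

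CD45+ cells were sorted from subcutaneous B16-OVA tumors, a melanoma line carrying ovalbumin, of C57BL/6 mice inoculated at 7 weeks of age, and profiled by droplet 5′ RNA sequencing. The paper describes the sorted cells as enriched for CD8+ tumor-infiltrating lymphocytes, so numbers of cells by type are not those of the tumor. Days 5 and 12 are counted there from cell transfer. Without lymphodepletion, mice received intravenous adoptive cell transfer (ACT) of CD8+ T cells from CD45.1+ OT1 donors, whose transgenic T cell receptor sees ovalbumin. The cells were untransduced, or secreted a PD-1 decoy (PD1d) together with an IL-2 variant that does not bind CD25 (PD1d/IL-2v) or with the alarmin IL-33 (PD1d/IL-33), or were a mixture of the engineered kinds in equal parts (PD1d/IL-2v/IL-33). These transfers are called untransduced, IL-2v, IL-33 and combined ACT below. Day 5 libraries were of untransduced ACT, combined ACT and non-treated mice, day 12 libraries of all 4 transfers, and the day 26 library of combined ACT alone. Hosts kept their own lymphocytes, and transferred and host CD8+ T cells cannot be told apart in these counts.

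Each of the 8 groups was 1 library made from pooled mice, so there was no replicate check, and no test between conditions was possible. Intervals below are exact 95% Poisson intervals for levels and exact Clopper-Pearson intervals for shares, and they cover counting error only. By a code in the authors' aggregation record, the libraries fell into 5 sets, called runs here. What the code stands for is not stated, and reading it as a run is an inference. Day and condition were also joined with run: the libraries of IL-2v and IL-33 ACT shared a run, as did those of untransduced and combined ACT at day 12, and those of combined ACT at day 26 and non-treated mice. The condition, the mice and, outside these pairs, the run cannot be told apart.

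NK receptors of this kind set the threshold at which a lymphocyte attacks. NKG2D recognizes stress-induced ligands of the RAE-1, H60 and MULT1 families, and CD94 pairs with NKG2A to inhibit, or with NKG2C to activate, on binding Qa-1. The NKR-P1 receptors include an activating member, NK1.1, and an inhibitory one, NKR-P1B, which recognizes Clr-b. KLRG1 binds cadherins and is carried by mature effector lymphocytes and by activated tissue regulatory T cells, and several of these receptors also appear on activated CD8+ T cells.

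Of 15700 barcodes, 12827 passed the filters on genes, UMIs and ribosomal and mitochondrial shares (81.7%), and the libraries held 1387032 to 24917112 UMIs. A UMI is 1 tagged RNA molecule. Cells were gated by raw UMIs of marker genes, none of them one of the 10 receptors. The CD8 T gate held 4980 cells, the NK gate 2446, the CD4 T gate 790 and the regulatory T (Treg) gate 591. The libraries of non-treated mice and of untransduced ACT at day 12 were small, with 66 and 50 NK cells, and the day 26 library held 68 NK cells beside 2255 CD8 T cells. At most 17 barcodes were shared by any pair of libraries. The NK label was checked against markers. The summed level of a list of 12 NK markers was 7868 to 13300 counts per 1000000 UMIs (CPM) in NK cells. Eomes of that list was also a gene of the NK gate, so its part in this check was partly set by the gate. The T cell list summed to 146.8 to 310.5 CPM in NK cells against 904.6 to 1563 CPM in CD8 T cells. In CD8 T cells the NK marker list ran from 241.5 to 2155 CPM, and it includes Gzma and Eomes, which CD8 T cells also express. Lists for other cells were not all low in NK cells. A dendritic cell list of 6 genes summed to 705.3 to 1513 CPM there against 1218 to 1905 CPM in conventional dendritic cells, carried by Irf8 (1210 CPM over all NK cells), while Xcr1 was at 0 UMIs and Clec9a at 0.134 CPM. A list of 2 effector CD8 T cell genes summed to 1095 to 2364 CPM in NK cells against 391.5 to 2008 CPM in CD8 T cells, carried by Gzmb (1985 CPM in NK cells) and not by Gzmk (42.1 CPM).

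Per library over all passing cells, Klrk1 ran from 172.9 CPM with combined ACT at day 12 to 419.7 without treatment, and Klrb1b from 5.50 CPM at day 26 to 121.0 with combined ACT at day 5. These library values mix the receptors' levels with the numbers of NK and CD8 T cells, so levels within gates are given from here.

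Across gates, 8 of the 10 receptors had their highest level in NK cells in 8 of 8 libraries, with intervals clear of the next gate among those of at least 20 cells, which were CD8 T cells in 8 libraries, Treg cells in 7 and CD4 T cells in 6. The share of all genes that likewise stood highest in NK cells was not computed, so this count has no background. The exceptions were Klrc1 and Klrg1. NK cells led for Klrc1 in 6 libraries and CD8 T cells in 2, with intervals clear of the next gate in 4 of the 8. Treg cells led for Klrg1 in each of their 7. Within NK cells, 8 of the receptors, Ncr1 by the most, stood lower in the day 5 and day 12 libraries of combined ACT than in those of untransduced ACT. Klrb1b and Klrg1 stood higher, Klrg1 at 78.7 against 67.1 CPM at day 5 and 127 against 13.5 at day 12. At day 5 the median gene was also lower, by a log2 ratio (defined below) of -0.16. Klre1 and Klri2, at -0.29 each, lay at percentiles 39.4 and 39.5 of all genes. For day 12 against untransduced ACT no values over all genes were computed.

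Klrk1 encodes NKG2D, an activating receptor on NK cells and a costimulatory one on CD8+ T cells. Its NK cell level was 956 CPM with untransduced ACT, 458 with combined ACT and 1107 without treatment at day 5. At day 12 it was 856 CPM with untransduced, 773 with IL-2v, 499 with IL-33 and 304 with combined ACT, and at day 26 it was 1028 CPM. The day 12 library of combined ACT was thus the lowest, with an interval of 283.0 to 325.8 CPM clear of all others, and the next, combined ACT at day 5 (440.4 to 476.5) and IL-33 (442.5 to 561.3), overlapped each other.

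Ncr1 encodes NKp46, an activating receptor held to be among the most NK-restricted. Its level was 744 CPM (708.9 to 780.9) with untransduced ACT, 205 (192.7 to 216.9) with combined ACT and 880 (775.0 to 994.5) without treatment at day 5. At day 12 it was 784 CPM with untransduced, 771 with IL-2v, 374 with IL-33 and 193 with combined ACT, and 795 CPM at day 26. The 8 libraries fell into a high set of 5, from 744 to 880 CPM, and 3 lower ones, those of IL-33 ACT and of combined ACT at days 5 and 12. The day 26 library of combined ACT was in the high set. The intervals of combined ACT at days 5 and 12 overlapped, and IL-33 ACT (325.5 to 428.6) lay between them and the high set.

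Klrb1c, the activating NKR-P1C, ran from 313 CPM with combined ACT at day 12 and 470 with the same ACT at day 5 to 878 with untransduced ACT at day 5 and 900 at day 26. IL-33 ACT stood at 544 CPM and IL-2v ACT at 739. Klrc2, the activating partner of CD94, was lowest in the same 2 libraries, at 89.6 CPM at day 12 and 106 at day 5, and lay between 198 and 359 CPM in the other 6. Both activating receptors were thus lowest where Klrk1 was.

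Klrd1, the CD94 chain, varied less: 529 CPM with combined ACT at day 5 and 583 at day 12 against 918 with untransduced ACT at day 5, 690 without treatment, 1050 with untransduced ACT at day 12, 1024 with IL-2v ACT, 847 with IL-33 ACT and 769 at day 26. Klrc1, the inhibitory NKG2A, was 209 and 177 CPM in the combined ACT libraries of days 5 and 12, 319 CPM with IL-33 ACT and 397 to 619 CPM elsewhere. The inhibitory and the activating partner of CD94 therefore stood low in the same libraries. Klre1, whose product pairs with that of Klri2 or Klri1, spanned 437 to 773 CPM and Klri2 153 to 338 CPM, in both cases lowest with combined ACT at day 12.

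Klrb1b ran the other way. Its level was 110 CPM (96.23 to 124.1) with untransduced ACT, 324 (308.6 to 338.9) with combined ACT and 124 (86.98 to 171.9) without treatment at day 5. At day 12 it was 149 CPM with untransduced, 79.5 with IL-2v, 276 with IL-33 and 232 with combined ACT, and 128 CPM at day 26. The same 3 libraries in which Ncr1 was low thus held the highest Klrb1b, at 232 to 324 CPM, against 79.5 to 149 CPM in the other 5, with no overlap between the intervals of the 2 sets.

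**Figure D1:**
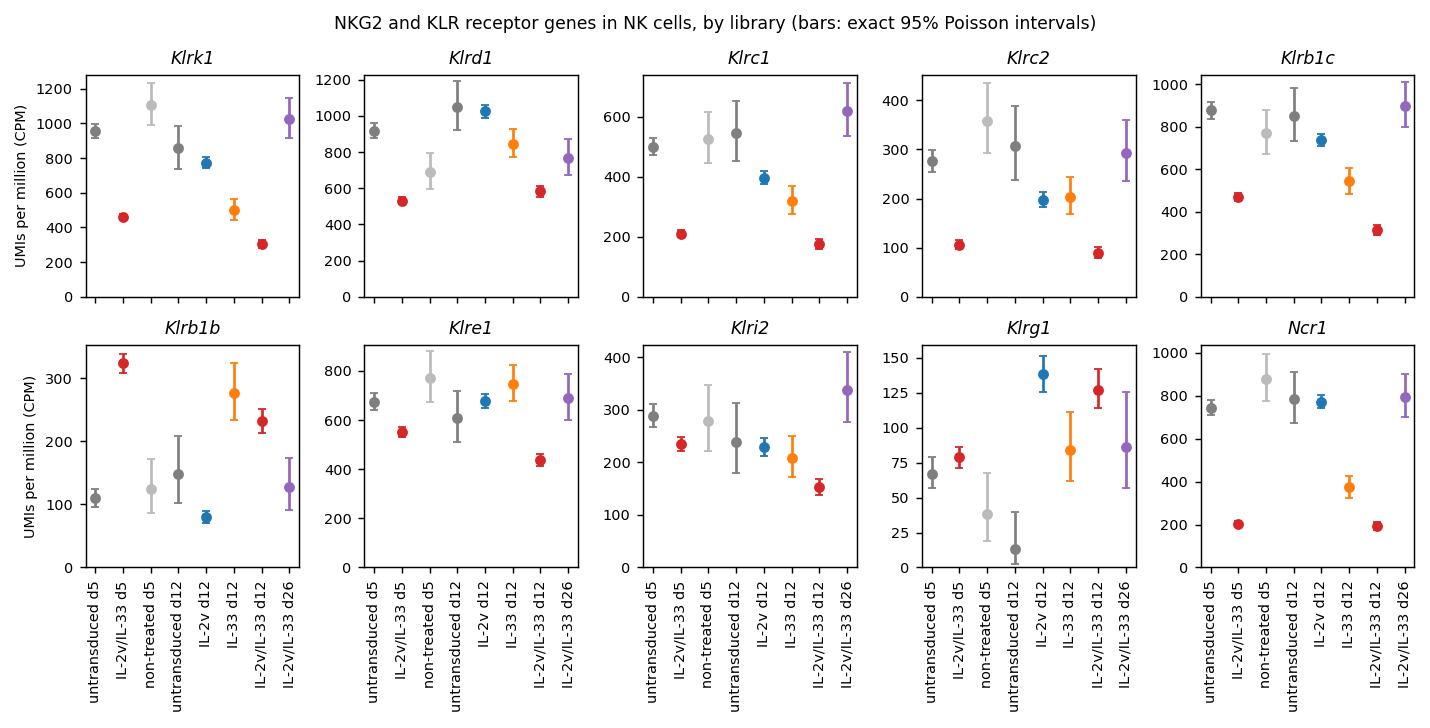
Level of the 10 receptor genes in NK cells of each library, in CPM with exact 95% Poisson intervals, 1 panel a gene and each axis from 0. Ncr1 and Klrk1 are low, and Klrb1b high, in the day 5 and day 12 libraries of combined ACT.

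Shares of cells fell into the same high and low sets with each cell thinned to 2000 UMIs, which removes differences in depth (median 4060 to 6781 UMIs an NK cell by library). Ncr1 was detected in 64.5% of NK cells with untransduced ACT at day 5, 33.1% with combined ACT at day 5, 71.5% with IL-2v ACT, 45.0% with IL-33 ACT, 30.9% with combined ACT at day 12 and 67.7% at day 26. Klrb1b was detected in 19.9%, 39.3%, 16.5%, 42.6%, 36.5% and 20.6% of the same cells. Over all libraries the unthinned shares of NK cells were 71.6% for Ncr1 and 48.4% for Klrb1b. Monocytes and macrophages, which should lack these receptors, gave thinned shares of 0.423% for Ncr1 and 1.61% for Klrb1b, at a median of 9232 UMIs a cell against 5224 in NK cells.

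The promoters of the NKR-P1 genes Klrb1b and Klrb1c are shown with those of Ncr1 and Klrk1. In NK cells these NKR-P1 genes ran in opposite directions between combined ACT and untransduced ACT at day 5 or IL-2v ACT. From day 5 to day 12 of combined ACT both were lower, with log2 ratios (defined below) of -0.46 and -0.57. RefSeq windows of GRCm38.p6 were held for 7 of the 10 genes, and the first listed start was used. Each line gives the 250 bases before the start, 5′ to 3′ on the gene's strand, with capitals on matches to the RUNX letters TGTGGT or the ETS letters GGAAGT on either strand.
Klrb1b, chr6:128826316-128826565, minus strand: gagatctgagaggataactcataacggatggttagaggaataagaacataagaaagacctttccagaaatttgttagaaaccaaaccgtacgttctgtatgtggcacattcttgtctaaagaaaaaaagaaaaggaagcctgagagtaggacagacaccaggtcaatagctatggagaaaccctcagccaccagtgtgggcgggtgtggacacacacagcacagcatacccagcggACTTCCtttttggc
Klrb1c, chr6:128788642-128788891, minus strand: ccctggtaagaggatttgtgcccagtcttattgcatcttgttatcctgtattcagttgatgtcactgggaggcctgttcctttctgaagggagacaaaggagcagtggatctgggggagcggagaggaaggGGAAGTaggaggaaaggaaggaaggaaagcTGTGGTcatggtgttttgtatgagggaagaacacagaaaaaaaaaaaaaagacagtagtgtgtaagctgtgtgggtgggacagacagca
Ncr1, chr7:4337465-4337714, plus strand: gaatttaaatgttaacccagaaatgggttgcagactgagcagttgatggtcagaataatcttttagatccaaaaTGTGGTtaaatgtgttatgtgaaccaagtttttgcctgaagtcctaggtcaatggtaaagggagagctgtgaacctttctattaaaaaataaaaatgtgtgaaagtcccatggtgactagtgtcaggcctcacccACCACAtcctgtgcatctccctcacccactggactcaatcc
Klrk1, chr6:129623865-129624114, minus strand: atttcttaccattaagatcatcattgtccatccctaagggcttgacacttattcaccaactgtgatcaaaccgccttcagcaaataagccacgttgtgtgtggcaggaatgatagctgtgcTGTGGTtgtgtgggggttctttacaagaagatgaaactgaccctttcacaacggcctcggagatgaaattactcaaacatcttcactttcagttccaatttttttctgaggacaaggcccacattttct

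The RUNX letters stood in 6 of the 7 windows (Klrk1, Klrc1, Klrc2, Klrb1c, Klre1 and Ncr1) against 14% of 32851 windows of the same length, and not in that of Klrb1b. ETS letters stood in 2 of 7, those of Klrb1b and Klrb1c, against 19.7% of windows. None of the 7 held the STAT letters TTCNNNGAA, found in 7.02% of windows. The AP-1 letters TGANTCA (6.75% of windows), the GATA-factor letters AGATAA (9.99%), the T-box letters AGGTGTGA (1.12%) and an NF-kB motif (1.21%) were in none either. Klrb1b and Klrb1c shared no run longer than 9 bases. A match of letters is a description of the window and not a binding site.

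To compare conditions, a log2 ratio of (CPM + 10) was taken between libraries for genes with at least 50 UMIs over both, and a ratio of at least 1 in size is called past the fold. The comparisons share libraries. Replicates being absent, the share of all genes past the fold is given beside each count of receptors as its background.

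In NK cells at day 5, 5 of 10 receptors were past the fold between combined and untransduced ACT, 1 higher and 4 lower, where 4.62% of 8263 genes were. Ncr1 was lowest, with a log2 ratio of -1.81 (-1.92 to -1.71), then Klrc2 at -1.31, Klrc1 at -1.22 and Klrk1 at -1.05 (-1.13 to -0.96), and Klrb1b was higher at 1.48 (1.30 to 1.66). The median was -0.84 over the receptors and -0.16 over all genes, of which 167 were past the fold upwards and 215 downwards. Scaling with TMM factors raised all ratios, gave 290 genes up and 109 down and left Klrk1 at -0.83, short of the fold, and the other 4 past it.

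At day 12, 6 of 10 receptors were past the fold between combined and IL-2v ACT, against 3.7% of genes. Ncr1 was again lowest, at -1.94 (-2.08 to -1.81), followed by Klrk1 at -1.32, Klrb1c at -1.21, Klrc1 at -1.12 and Klrc2 at -1.06. Klrb1b was the receptor higher, at 1.44 (1.24 to 1.63). With TMM factors, which moved the median gene by 0.180 and the split of genes from 119 up and 159 down to 234 and 67, Ncr1 (-1.71), Klrk1 (-1.08) and Klrb1b (1.68) stayed past the fold, while Klrb1c (-0.97), Klrc1 (-0.89) and Klrc2 (-0.84) did not.

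Against IL-33 ACT at day 12, combined ACT had 1 receptor of 10 past the fold in NK cells, Klrc2 at -1.10 (-1.40 to -0.79), with 2.73% of genes past it (80 up and 73 down, or 142 and 32 with TMM factors). Klrb1b differed by -0.24 (-0.49 to 0.01), an interval that includes 0. Klrk1 at -0.70 and Ncr1 at -0.92 were lower by intervals clear of 0, but short of the fold. Between IL-2v and IL-33 ACT, 2 of 10 were past it against 4.81% of genes: Klrb1b was lower with IL-2v, at -1.68 (-1.95 to -1.40), and Ncr1 higher, at 1.02 (0.83 to 1.23).

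Over time in combined ACT, 0 of 10 receptors were past the fold in NK cells between days 5 and 12, where 0.599% of genes were (24 up and 25 down, or 41 and 20 with TMM factors). From day 12 to day 26, 6 of 10 were, all higher at day 26, against 11.1% of genes: Ncr1 at 1.99, Klrc1 at 1.75, Klrk1 at 1.73, Klrc2 at 1.61, Klrb1c at 1.49 and Klri2 at 1.10. Klrb1b was lower by -0.81 (-1.27 to -0.38). This comparison rested on 68 cells at day 26 and moved with the scaling: 394 genes were past the fold upwards and 201 downwards, and with TMM factors 85 and 505. Under those factors Ncr1 stood at 1.54, Klrk1 at 1.27 and Klri2 at 0.65, and Klrb1b, at -1.26, was past the fold. Untransduced ACT and no treatment had 0 of 10 receptors past the fold at day 5, against 1.59% of genes (62 up and 28 down, 77 and 16 with TMM factors).

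**Figure D2:**
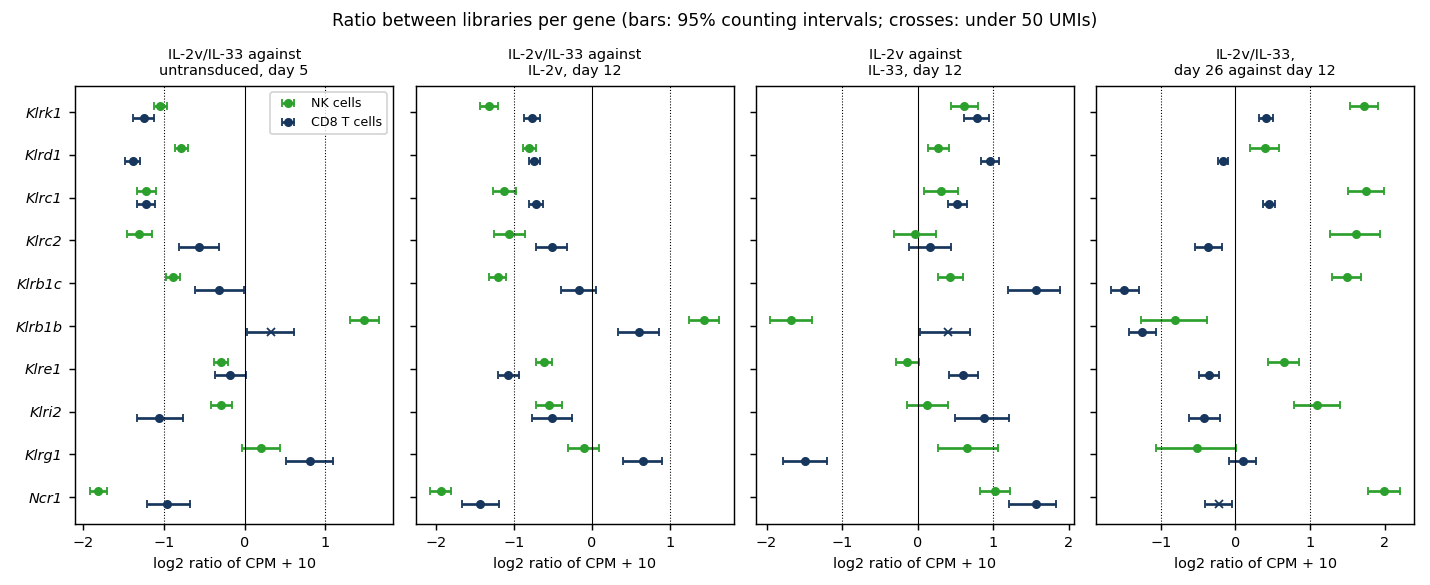
Log2 ratio of CPM + 10 between libraries for the 10 receptor genes in NK and CD8 T cells, with intervals for counting error and lines at 0 and at the fold. Klrb1b lies to the other side of 0 from Ncr1 in NK cells in each comparison shown.

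Cells in cycle moved with some of these values and their part in them was not tested: by thinned UMIs of Mki67 or Top2a, cycling NK cells were 3.04% with untransduced and 10.5% with combined ACT at day 5, and at day 12 7.39% with IL-2v, 0.775% with IL-33 and 7.17% with combined ACT. Without cycling cells, 19 of the 20 NK cell ratios past the fold stayed past it.

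In CD8 T cells Klrk1, Klrd1 and Klrc1 were all highest with untransduced ACT at day 5. Klrk1 was 365 CPM there, 148 with combined ACT and 275 without treatment, then 187, 273, 155 and 156 CPM at day 12 with untransduced, IL-2v, IL-33 and combined ACT, and 210 CPM at day 26. Klrd1 was 782, 292 and 507 CPM at day 5, then 410, 604, 305 and 358 CPM at day 12 and 317 CPM at day 26, in the same order of libraries. Its intervals in untransduced ACT at day 5 (756.9 to 807.2) and IL-2v ACT (584.0 to 625.2) were clear of each other and of the 4 libraries of IL-33 and combined ACT.

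Klrc1, the inhibitory partner of CD94, was 489, 204 and 347 CPM at day 5 in that order, 223, 410, 282 and 246 CPM at day 12 and 338 CPM (328.7 to 347.7) at day 26. Unlike Klrd1, it was higher at day 26 than at either earlier day of combined ACT. With combined ACT at day 12 it was also higher in CD8 T cells, 246 CPM (234.0 to 257.6), than in NK cells, 177 CPM (160.7 to 193.4). Thinned shares of CD8 T cells with Klrc1 ran from 22.0% with untransduced ACT at day 12 to 45.5% with untransduced ACT at day 5.

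Klre1 was highest with IL-2v ACT, at 183 CPM (171.4 to 194.1), then 116 with IL-33 ACT (102.3 to 131.5), and 54.0 to 81.3 CPM in the other 6 libraries. Klrc2 spanned 23.7 to 52.2 CPM and Klri2 5.00 to 27.4 CPM. Klrb1c (0 to 34.8 CPM), Klrb1b (0.754 to 15.6) and Ncr1 (1.58 to 26.6) were near the floor. The largest thinned shares of the last 2 were set against monocytes and macrophages of the same library, leaving aside untransduced ACT at day 12, with 1 of 41 cells for each. Klrb1b reached 2.76% (1.70 to 4.23) with combined ACT at day 12, where those cells gave 4.55% (1.25 to 11.2). Ncr1 reached 1.82% (0.874 to 3.31) with IL-2v ACT and 1.65% (0.713 to 3.22) with untransduced ACT at day 5, where they gave 0.379% with an upper bound of 2.09% and 0.377% with one of 2.08%. The intervals overlapped in each case, so these shares did not tell either gene from background in CD8 T cells at this depth. Splits of the same thinned cells did differ. Ncr1 was higher in cells with the adaptor gene Tyrobp in 3 of 4 libraries, all 3 with intervals apart. Klrb1c was higher in such cells in 4 of 4, apart in 3. Tyrobp is a gene the NK gate required and doublets were not called. The part of NK cells or doublets in these splits was not tested. Klrb1b was higher in cells with the granzyme gene Gzmc in 2 of 2, with intervals apart.

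**Figure D3:**
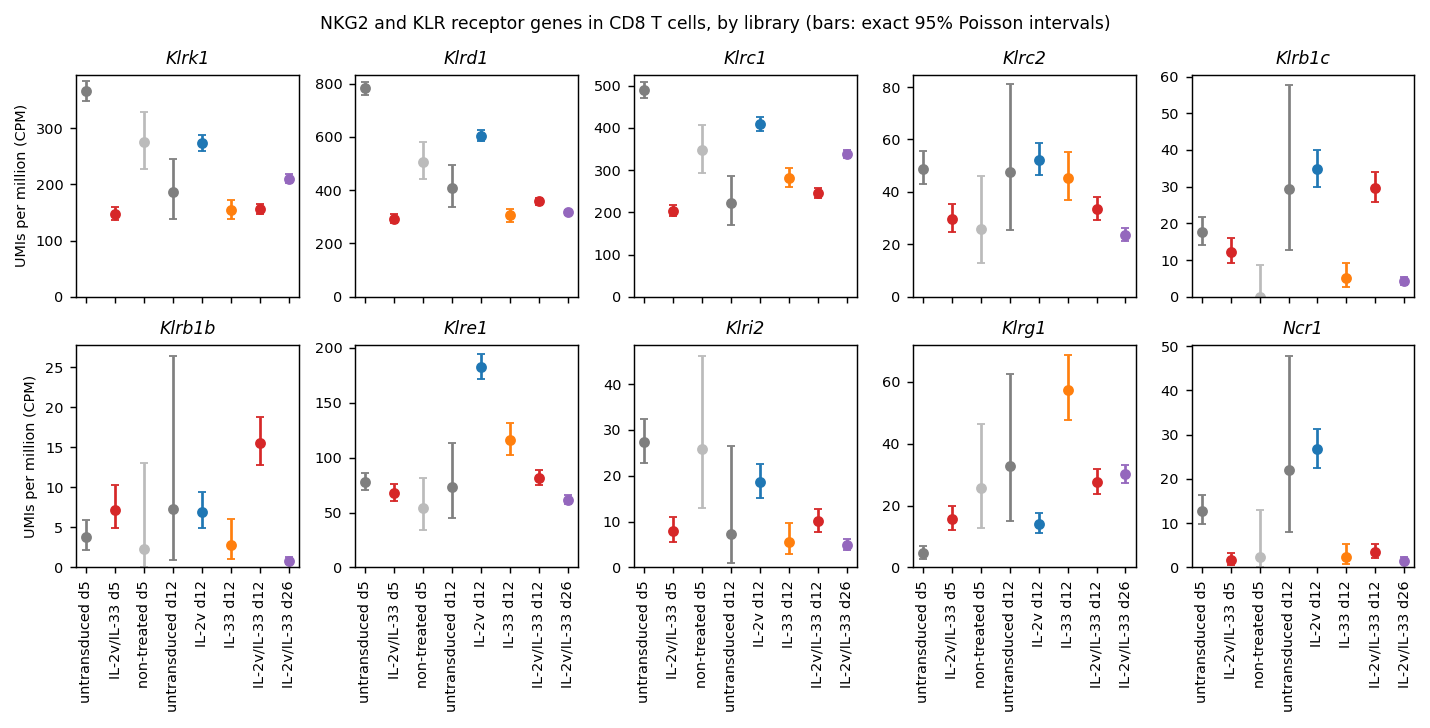
Level of the 10 receptor genes in CD8 T cells of each library, in CPM with exact 95% Poisson intervals, 1 panel a gene and each axis from 0. Klrk1, Klrd1 and Klrc1 are highest with untransduced ACT at day 5, Klre1 with IL-2v ACT and Klrg1 with IL-33 ACT.

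At day 5, 4 of 9 receptors tested in CD8 T cells were past the fold between combined and untransduced ACT, all lower, where 3.11% of genes were. Klrd1 stood at -1.39, Klrk1 at -1.25 (-1.38 to -1.13), Klrc1 at -1.22 and Klri2 at -1.06. Klri2 fell short of the fold with TMM factors (-0.97), in a gate that needed 2 UMIs each of CD3 and Cd8 genes and none of 3 myeloid ones (-0.95) and without cycling cells, and Klrc1 with the cell filter of another experiment of the study (-0.88). The receptors' median was -0.97 and that of all genes -0.09, with 151 genes up and 119 down (199 and 75 with TMM factors).

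Of the 14 CD8 T cell ratios past the fold over all comparisons, 8 had fewer than 50 UMIs in the lower library and met the minimum through the higher one, so their counts are descriptions only. No NK cell ratio did. At day 5 this was Klri2, with 34 UMIs against 131.

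At day 12, 2 of 10 were past the fold between combined and IL-2v ACT, against 2.12% of genes (101 up and 91 down, or 137 and 75 with TMM factors), both lower: Ncr1 at -1.44 (24 against 147 UMIs) and Klre1 at -1.08. Against IL-33 ACT, 2 of 9 were, both higher, Klrb1c at 1.40 (204 against 11 UMIs) and Klrb1b just past it (15.6 against 2.78 CPM, from 107 and 6 UMIs), with 1.91% of genes past it (113 up and 47 down, or 138 and 33). Between IL-2v and IL-33 ACT, 3 of 9 were, against 3.17% of genes: Klrb1c and Ncr1 were higher with IL-2v, each at 1.57 (192 against 11 and 147 against 5 UMIs), and Klrg1 was lower, at -1.49. Klrd1, at 0.96, was just short.

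From day 5 to day 12 of combined ACT, 0 of 9 receptors were past the fold in CD8 T cells, with 0.701% of genes past it (39 up and 23 down, or 54 and 14 with TMM factors). From day 12 to day 26, 2 of 9 were, Klrb1c lower at -1.49 and Klrb1b at -1.25 (11 against 107 UMIs), against 3.25% of genes (149 up and 171 down, or 112 and 212). Untransduced ACT against no treatment had 1 of 8, against 2.07% of genes. That gene was Klrb1c, with 0 UMIs in 74 cells of non-treated mice, which allows up to 8.66 CPM, against 84 UMIs or 17.6 CPM (14.0 to 21.7) with untransduced ACT.

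A subset of CD8 T cells held UMIs of Tyrobp, the DAP12 adaptor used by many NK receptors: 18.5% with IL-2v ACT, 12.4% with untransduced ACT at day 5 and 2.57% at day 26. The part of NK cells or doublets in this subset was not tested. Without these cells, 8 of the 14 CD8 T cell ratios stayed past the fold. Ncr1 moved to -0.20 between combined and IL-2v ACT and to 0.31 between IL-2v and IL-33 ACT, Klrb1c to 0.88 in the latter and to 0.45 between untransduced ACT and no treatment, Klre1 to -0.94 and Klrb1b to 0.90. In the remaining cells with IL-2v ACT, Ncr1 stood at 2.36 CPM. The ratios of Klrk1, Klrd1 and Klrc1 at day 5 were past the fold with and without these cells.

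Klrg1 had its highest level in Treg cells. It was 258 CPM with untransduced and 256 with combined ACT at day 5. At day 12 it was 237 CPM with untransduced, 588 (545.9 to 632.3) with IL-2v, 424 (324.7 to 542.9) with IL-33 and 490 (404.2 to 587.6) with combined ACT, and 437 CPM (398.0 to 477.7) at day 26. Each engineered library of days 12 and 26 therefore stood above both day 5 libraries, and the IL-2v ACT interval overlapped that of combined ACT at day 12. In Treg cells a type 2 lymphoid list of 5 genes ran from 890.3 to 3376 CPM and the NK list from 6.23 to 573.4 CPM by library, and their part was not tested. The 15 Treg cells of non-treated mice were too few to place.

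Thinned Klrg1 shares were 41.1% of Treg cells over all libraries (56.7% unthinned), 14.9% of NK cells (26.5%), 5.00% of CD8 T cells (10.7%) and 0.169% of monocytes and macrophages (0.339%). CD4 T cells without Foxp3 had 2.14 CPM with untransduced and 146 CPM with combined ACT at day 5, 195 CPM with IL-2v ACT and 66.2 CPM with combined ACT at day 12. Other markers moved with these CD4 T cell values and their part was not tested: in the same order of libraries the type 2 lymphoid list stood at 733.4, 11350, 902.3 and 2380 CPM, and the NK list at 49.2, 426.6, 654.6 and 397.3 CPM. The CD8 T cell level was 57.4 CPM (47.76 to 68.47) with IL-33 ACT, clear of 14.0 CPM with IL-2v ACT and 4.60 CPM with untransduced ACT at day 5. In NK cells it was highest with IL-2v ACT (138 CPM) and combined ACT at day 12 (127 CPM), whose intervals overlapped.

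**Figure D4:**
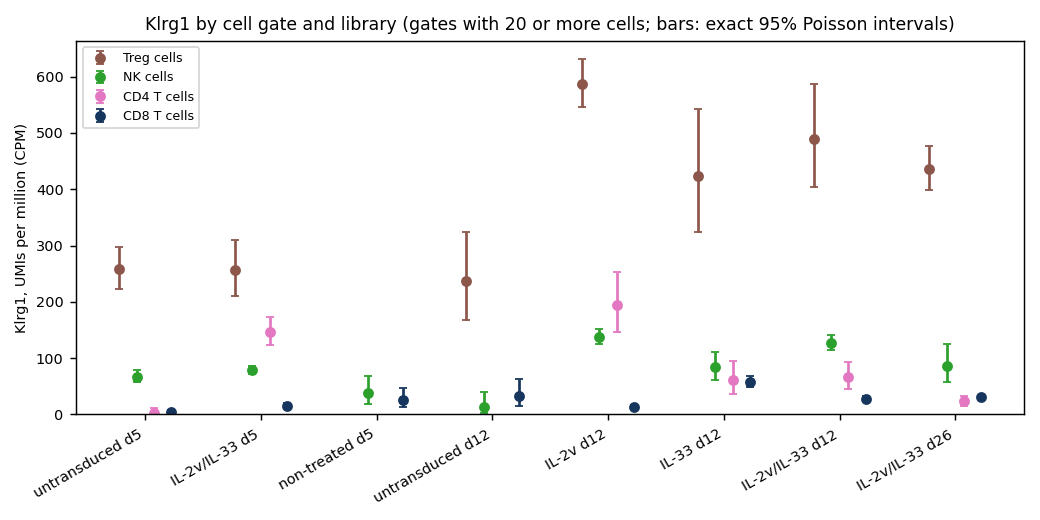
Klrg1 level in the CD8 T, NK, CD4 T and Treg gates of each library, in CPM with exact 95% Poisson intervals, for gates with at least 20 cells. Treg cells stand highest in each of the 7 libraries shown for them.

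NKG2A and NKG2C compete for CD94, and their transcripts were detected together differently in the 2 cell types. Of thinned CD8 T cells, 10.2% (8.86 to 11.6) of those with a Klrc1 UMI and 3.74% (3.10 to 4.47) of those without had one of Klrc2. Among NK cells the shares were 22.5% (19.7 to 25.5) and 30.5% (28.3 to 32.8). These shares pool the cells of all libraries, which are not replicates, so large libraries weigh most. Day 26 gave 2255 of the 4980 CD8 T cells, and combined ACT at day 5 gave 938 of the 2446 NK cells. The direction held in 8 of 8 libraries for each cell type, but within most single libraries the 2 intervals overlapped. With combined ACT at day 12 the shares were 8.55% (5.497 to 12.55) and 6.154% (4.128 to 8.771) in CD8 T cells. In NK cells of that library they were 17.98% (10.64 to 27.55) and 19.72% (14.66 to 25.63). The largest gap was in NK cells of non-treated mice, 15.4% against 67.5%. As the genes are close paralogs, reads shared between them could be assigned to either or dropped.

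**Figure D5:**
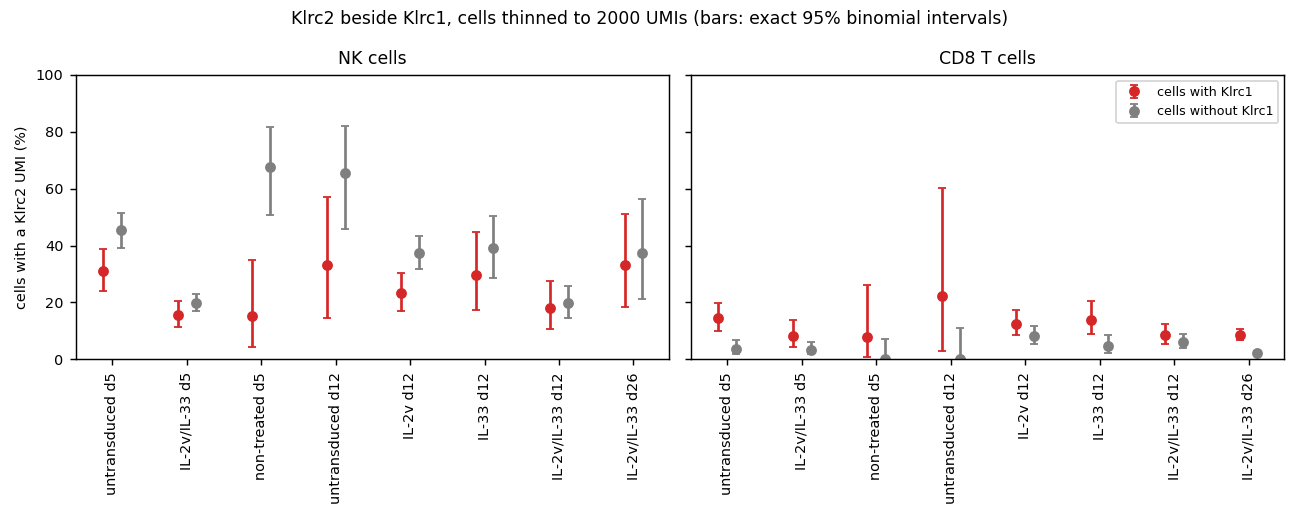
Percent of cells with a Klrc2 UMI among cells with and without a Klrc1 UMI, by library, in CD8 T and NK cells thinned to 2000 UMIs, with exact 95% Clopper-Pearson intervals. Cells with Klrc1 stand above those without in CD8 T cells and below them in NK cells, with intervals that overlap in most libraries.

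Klrk1 also went with Klrc1 in CD8 T cells: 42.1% of cells with Klrc1 and 19.5% of those without had a Klrk1 UMI, and the share was higher with Klrc1 in 8 of 8 libraries. Klre1 was detected in 17.5% and 8.98% of the same cells, higher with Klrc1 in 7 of 8 libraries, the exception being IL-33 ACT. In NK cells Klrb1c was detected in 48.2% to 92.3% of cells with a Klrb1b UMI and 51.8% to 79.0% of cells without one by library, higher with it in 5 of 8. Both NKR-P1 transcripts were thus found in the same cells.

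Receptor levels were also set against other genes of the same thinned cells. Klrd1 was higher in CD8 T cells with a UMI of Pdcd1, the PD-1 gene, in 7 of 7 libraries, with intervals apart in 4. In untransduced ACT at day 5 it was 1074 CPM with Pdcd1 and 532 without. In day 26 CD8 T cells the values were 334 and 302 CPM, with intervals that overlapped. In NK cells Klrg1 was higher with the effector protease gene Gzmb in 8 of 8 libraries, with intervals apart in 4, as in IL-2v ACT at 213 and 28.8 CPM.

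NK cells with a UMI of the granzyme gene Gzmc differed in some receptors. Klrb1c was lower with Gzmc in 4 of 4 libraries with enough cells, all with intervals apart, and stood at 435 CPM against 995 with untransduced ACT at day 5. Klrc2 was lower in 4 of 4, apart in 2, with 44.9 CPM against 147 in combined ACT at day 12. Ncr1 was not: it was higher with Gzmc in 3 of 4, with no intervals apart. Klre1 (apart in 2), Klri2 (apart in 1) and Klrg1 (apart in 0) were also lower in 4 of 4. The inhibitory Klrc1 was higher in 3 of 4, apart in 1. Klrb1b was higher in 3, Klrd1 in 2 and Klrk1 in 1 of 4. In CD8 T cells of combined ACT at day 12, Klrb1b was 45.1 CPM in 111 cells with Gzmc and 10.6 CPM in 613 cells without, in the library where its share overlapped that of monocytes and macrophages.

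Outside the 4 main gates, cells with a CD3 UMI and neither Cd4 nor Cd8 UMIs held 420 CPM of Klrk1, 531 of Klrd1, 299 of Klrc1 and 222 of Ncr1 over all libraries. Their NK marker list summed to 4082 CPM, against 11750 in NK cells and 1123 in CD8 T cells. Their T cell list summed to 659.4 CPM, against 168.1 and 1202. The gate was thus not of T cells alone by these lists, and the part of NK cells or doublets was not tested. Of these 1355 cells, 389 had an Ncr1 UMI, and 161 had only Cd3g of the CD3 genes, 95 of them with Ncr1. Counting Cd3g-only cells as NK cells left 19 of the 20 NK ratios past the fold. Plasmacytoid dendritic cells had 477 CPM of Klrd1 and 210 of Klrk1, and conventional dendritic cells 232 and 178, over few cells (48 and 126). The NK marker list summed to 611.3 CPM in the former and 136.8 in the latter, and its part in these values was not tested. Klrg1 reached 280 CPM in 41 cells of a type 2 lymphoid gate, in which Klrc1 was at 0 UMIs.

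Among other receptors of the family, 6 of the 7 listed genes beside the members were in the gene table, and up to 4 could be compared in NK cells. Klrb1f, of the NKR-P1 group, was 84.2 CPM with combined and 232 with untransduced ACT at day 5 (log2 ratio -1.36), and Klrc3 was lower by -1.49, so 2 of 4 were past the fold downwards, where 4.62% of genes were past it. Against IL-2v ACT at day 12, 3 of 4 were, with 3.7% of genes: Klrb1a at -1.58, Klrb1f at -1.66 and Klrc3 at -1.05. At day 26 against day 12, both genes tested were higher, Klrb1a at 2.25 and Klrb1f at 1.72, with 11.1% of genes past the fold. Klrb1a was also past the fold against IL-33 ACT, at -1.23 (2.73% of genes), and Klri1 between untransduced ACT and no treatment, at -1.52 (1.59% of genes). With TMM factors Klrc3 against IL-2v ACT stood at -0.96, short of the fold, and the other ratios stayed past it. Klrb1a and Klrb1f thus went with Klrb1c and not with Klrb1b.

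The Ly49 receptors, MHC class I receptors of mouse NK cells, had 11 of 23 listed genes in the table. In NK cells 0 of 9 tested were past the fold at day 5 between combined and untransduced ACT, with a median log2 ratio of -0.42, and 0 of 8 against IL-2v ACT, with a median of -0.49, where 4.62% and 3.7% of all genes were. Against IL-33 ACT 1 of 8 was, downwards, with a median of -0.675, where 2.73% of genes were. The remaining NK cell comparisons had 0, against 0.599% to 11.1% of genes. In CD8 T cells 3 of 8 were past the fold downwards against IL-2v ACT at day 12, as were 2.12% of genes in either direction, and all 3 stayed past it with TMM factors. Klra7 (Ly49G) was 24.9 CPM with combined and 97.5 with IL-2v ACT, with Klra1 and Klra3 beside it. Tyrobp was likewise lower with combined ACT, at 46.5 CPM against 156 with IL-2v ACT. Between IL-2v and IL-33 ACT, 3 of 8 Ly49 genes were past the fold upwards in CD8 T cells, where 3.17% of genes were past it. Cells with a Tyrobp UMI were 18.5% of CD8 T cells with IL-2v, 7.32% with combined and 6.39% with IL-33 ACT at day 12. The Ly49 genes were not compared without these cells, and their part in the CD8 T cell ratios was not tested. The other CD8 T cell comparisons had 0 or 1 past it, against 0.701% to 3.25% of genes.

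Of 13 adaptors and signalling genes, 0 or 1 was past the fold by comparison in NK cells, where the share of all genes past it was 0.599% to 11.1%. Hcst (DAP10) and Tyrobp, through which NKG2D signals, were not past the fold in NK cells in any comparison. For Tyrobp this is no result about NK cells, because the NK gate itself required a UMI of it. The gene past it was Ptpn6, the SHP-1 phosphatase recruited by inhibitory receptors, at -1.25 against untransduced ACT at day 5, -1.11 against IL-2v ACT and 1.05 at day 26 against day 12. With TMM factors it stood at -1.05, -0.90 and 0.63, so only the first stayed past the fold. In CD8 T cells 11 of the list were tested. Past the fold were 1 up and 1 down between combined and IL-33 ACT (1.91% of all genes), and 2 up and 1 down between IL-2v and IL-33 ACT (3.17%). At day 26 against day 12, 2 were up and 2 down (3.25%), and the other comparisons had 0 or 1 (0.701% to 3.11%). Fcer1g, an adaptor shared by NKp46 and Fc receptors, was 267 CPM in CD8 T cells with combined ACT at day 12. It was 246 with IL-2v ACT, 50.9 with IL-33 ACT, 56.5 with combined ACT at day 5 and 15.4 at day 26.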

How the data were processed

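Raw UMI counts per gene and cell were deposited by the authors as 1 table of 8 libraries aggregated with Cell Ranger 2.2.0 against GRCm38, per the labels' processing notes (the study's methods name another version). Droplet calling was the authors'. A deposited aggregation table tied barcodes to libraries, and 0 unused columns of samples remained. Doublets were not called, and cells with markers of other lineages were left out of the T and NK gates.

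Cells with 500 to 6000 genes, 2000 to 40000 UMIs, 5 to 60% ribosomal and under 10% mitochondrial UMIs were kept. CD8 T cells had a UMI of a CD3 gene plus Cd8a or Cd8b1, without Cd4 or Foxp3. CD4 T cells had CD3 and Cd4, and Treg cells CD3 and Foxp3, without Cd8. NK cells had no CD3, Cd4 or Cd8 UMI, 1 of Tyrobp, 2 of Nkg7 and 1 of Il2rb, Prf1, Eomes or Txk. UMIs were summed by gate and library and divided by the gate's total (CPM). Thinned values drew 2000 UMIs a cell. The script was tested on simulated data.

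All 10 genes are named, with lists of Ly49, other KLR, adaptor and ligand genes, of which those with at least 50 UMIs in the gate are named, and with the 3 genes most like Klrk1, Klrd1, Klrc1 and Klrg1 in CD8 T cells. Genes and lists were chosen with earlier results of these data known. The splits of NK cells by other genes, the Tyrobp split and 3 alternatives (CD8 T cells without Tyrobp, Cd3g not counted in the NK gate, and TMM factors for the listed genes) were added after seeing the data. Values were computed in Python 3.11.15 (scipy 1.17.1, numpy 2.4.6, matplotlib 3.10.9, pandas 2.3.3), and TMM factors in R 4.3.3 with edgeR 4.0.16. The NKG2, NKR-P1 and Ly49 genes have close paralogs, so that their counts are uncertain where the authors' counting could split or drop reads.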

Additional observations from a re-analysis of the deposited data

Results flagged for a closer look

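Some receptors moved in opposite directions in CD8 T and NK cells under the same comparison, with 1 of the pair past the fold or both. With 1 library a condition, the difference between cell types was not tested. Klrb1c did so at day 26 against day 12 of combined ACT, with log2 ratios of -1.49 in CD8 T and 1.49 in NK cells, and at day 12 between combined and IL-33 ACT, with 1.40 and -0.78. Klrc2 stood at -0.36 in CD8 T and 1.61 in NK cells, and Klri2 at -0.42 and 1.10, at day 26 against day 12. Klrg1 stood at -1.49 in CD8 T and 0.66 in NK cells between IL-2v and IL-33 ACT. The day 26 NK values rest on 68 cells, and with TMM factors that of Klri2 was short of the fold. The CD8 T cell ratio of Klrb1c between combined and IL-33 ACT rests on 204 against 11 UMIs. At day 26 against day 12 the CD8 T cell levels were low, 4.18 against 29.7 CPM for Klrb1c and 5.00 against 10.1 for Klri2. NK cells were 68 of 3655 passing cells at day 26 and 307 of 1643 at day 12. The part of background in these CD8 T cell ratios was not tested.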

How the results depend on the processing

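No paired analysis was possible because each condition and day is 1 library, and for the same reason no library could be left out. No ratio past the fold changed sign under any alternative. Of the 20 NK cell ratios past it, 14 stayed with TMM factors, 14 when thinned, 16 with a filter on cells from a later experiment of the study and 17 with cells weighted equally, and of 14 in CD8 T cells 12, 8, 8 and 12. Of the 6 lost in CD8 T cells by thinning, 5 kept a ratio past the fold but had fewer than 50 UMIs. Receptors past the fold in CD8 T cells between combined and IL-2v ACT were 2, and 1 with the later filter, a strict gate, TMM factors or thinning and 0 without Tyrobp. Against IL-33 ACT they were 2, and 1 with the later filter, equal weights, thinning, without cycling cells or without Tyrobp. Between IL-2v and IL-33 ACT 3 became 1 without Tyrobp. Day 12 against day 5, 0 became 2 with a pseudocount of 1, and day 26 against day 12, 2 became 1 with the later filter, equal weights or thinning. Untransduced ACT against no treatment, 1 became 0 with the later filter, a strict gate or without Tyrobp, and 2 with a pseudocount of 1, a minimum of 10 UMIs or equal weights. In NK cells, 6 became 3 against IL-2v ACT with TMM factors, 1 became 0 against IL-33 ACT with the later filter, TMM factors, equal weights or thinning, and 2 became 1 between IL-2v and IL-33 ACT with thinning, a wide NK gate or Cd3g not counted. Over all genes, a pseudocount of 1 raised the counts past the fold 1.67 to 4.78 times. The later filter changed those of CD8 T cells from 192 to 289, 160 to 104 and 155 to 92 against IL-2v ACT, IL-33 ACT and no treatment, and those of NK cells from 153 to 62 against IL-33 ACT and 595 to 339 at day 26. Fewer genes met the minimum in each of these comparisons with that filter. Thinning gave 104, 58 and 218 where 160, 153 and 595 stood. These were of 4540, 2181 and 1886 genes tested, in place of 8382, 5605 and 5369, so the counts fell together with the genes tested. A minimum of 10 UMIs gave 897 for 595 at day 26 and 197 for 90 against no treatment in NK cells. The genes tested rose as well, from 5369 to 9228 and from 5678 to 9221. The causes were not tested.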

Other observations

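Ligands of these receptors were measured in the same cells. H2-T23, which encodes Qa-1, the ligand of CD94 with NKG2A or NKG2C, was 432 CPM in CD8 T cells, 387 in NK cells, 608 in monocytes and macrophages and 1170 in plasmacytoid dendritic cells over all libraries. Clec2d, which encodes Clr-b, the ligand of NKR-P1B, was 210 CPM in CD8 T cells, 231 in NK cells, 315 in monocytes and macrophages and 513 in plasmacytoid dendritic cells. Both were thus present in each gate. The NKG2D ligands were near 0: Raet1d and Raet1e were 2.87 and 2.69 CPM in monocytes and macrophages and held 1 or 2 UMIs each in CD8 T and NK cells, and Ulbp1, which encodes MULT1, was 4.83 CPM in CD8 T cells. Tumor cells were removed by the CD45 sort, so their ligands were not measured. Cdh1, the gene of the KLRG1 ligand E-cadherin, was 134 CPM in plasmacytoid dendritic cells and 12.5 CPM in CD8 T cells.

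Across the 8 libraries, the genes whose CD8 T cell levels followed Klrk1 most closely were Ddit4 (Pearson's r of log2 values 0.987), Psma3 (0.965) and Nsmce1 (0.960), among 3143 genes. Klrd1 followed Nrgn (0.956), Dapl1 (0.931) and Klrk1 (0.927). For Klrc1 they were Ndufv1 (0.975), Mdh2 (0.952) and Actr10 (0.943), and for Klrg1 Gm15232 (0.902), Rpl13a-ps1 (0.902) and AY036118 (0.894). Klrk1 and Klrg1 ran opposite, at -0.673. The 8 points share runs and sum all CD8 T cells of a library, and these are descriptions over few points chosen as the highest of many.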
